A study of Mus musculus with 7 samples.

Results

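MiR-9 and miR-9* are the products of the 5′ and the 3′ arm of one kind of miRNA hairpin. They were picked by name (mmu-miR-9 and mmu-miR-9*) and by the mature loci of the 3 mouse hairpins that encode them, Mir9-1, Mir9-2 and Mir9-3. They were 2 of the 756 mature sequences measured and 6 of the 806 loci. Small RNA was sequenced from pooled hippocampi of adult male mice (3 to 5 months old by the labels, C57BL/6) in 7 libraries, to ask how training and inhibition of protein phosphatase 1 (PP1) alter miRNAs.

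NIPP1* is a fragment of an inhibitor protein that binds PP1 in the nucleus, tagged with EGFP. In the NIPP1* mice, doxycycline in the diet let a reverse transactivator switch on its tetO-driven gene. The CaMKIIalpha promoter limited the transactivator to forebrain neurons, so that the hippocampus also held many cells without the fragment. The controls were littermates labelled wildtype. Trained mice explored unfamiliar objects in an arena, and non-trained mice went through the same handling and habituation without objects. The labels give library 1 as control and library 2 as NIPP1*, both without training. Of the trained mice, libraries 3, 4 and 5 are labelled control and libraries 6 and 7 NIPP1*. They are here called trained control replicates 1, 2 and 3 and trained NIPP1* replicates 1 and 2, numbers that only name a library and are not from the labels. The labels do not name the mice behind a library, so the p-values measure the spread between these libraries, which may be technical.

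MiRNAs are cut from hairpins in primary transcripts, first in the nucleus by Drosha and then in the cytoplasm by Dicer. One strand of the resulting duplex is usually loaded into an Argonaute protein, where its seed (bases 2 to 8) pairs with target mRNAs. MiR-9 is a miRNA of the nervous system, known for its part in neural progenitor proliferation and neuronal differentiation, with targets such as the transcription factor REST, while miR-9*, the product of the opposite arm, is known to target the REST cofactor CoREST.

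The mature sequences (RefSeq, GRCm38.p6) are shown because both arms were abundant and carry different seeds, here in capitals.
mmu-miR-9: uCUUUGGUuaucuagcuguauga
mmu-miR-9*: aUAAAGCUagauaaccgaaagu
The seed CUUUGGU and the seed UAAAGCU belonged to no other mouse mature miRNA in the RefSeq table. MiR-9 has 23 bases and 34.8% G or C, and miR-9* has 22 bases and 31.8% G or C.

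The 3 hairpins, read 5′ to 3′ on the plus strand of the genome the files use (NCBI37/mm9), are shown because the deposited values differed between copies of miR-9*. Capitals mark miR-9 and then miR-9*.
Mir9-1: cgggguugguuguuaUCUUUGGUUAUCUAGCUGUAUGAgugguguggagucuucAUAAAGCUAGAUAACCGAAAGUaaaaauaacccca
Mir9-2: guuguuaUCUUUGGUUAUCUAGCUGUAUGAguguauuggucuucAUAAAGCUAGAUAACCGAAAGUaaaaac
Mir9-3: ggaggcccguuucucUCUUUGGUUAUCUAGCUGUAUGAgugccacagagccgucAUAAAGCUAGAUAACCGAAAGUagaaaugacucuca
Mir9-1 lies at chr3:88019520-88019608, inside the lincRNA Gm3764 (88018407 to 88025782) and outside its annotated exons. Mir9-2 lies at chr13:83878419-83878490, in exon 4 of the lincRNA C130071C03Rik. Mir9-3 lies at chr7:86650150-86650239, inside the lincRNA AI854517 (86645003 to 86679283) and outside its annotated exons. The loops between the arms have 16, 14 and 16 bases. Both mature sequences are the same in the 3 hairpins, so a read of the mature length cannot be given to one of them. The files carry no strand, and RefSeq also places products named miR-9b on the opposite strand of these hairpins, so reads of these could not be told apart.

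The deposited values are percentages of the miRNA reads of a library at each mature locus. Each copy of a sequence has a value of its own, and in 22 of the 45 sequences with copies these values were not all equal. Copies were averaged and the values also expressed as reads per 1000000 miRNA reads (RPM). The steps between low values gave back whole reads, in totals of 7285250 to 10017730 per library. Neural miRNAs other than miR-9 (4 listed, all detected) summed to 64836 to 80445 RPM per library, and the liver miRNA miR-122 reached 11.2 to 18.4 RPM. The transgene is not measured by small RNA, which left the labelled genotypes unchecked.

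The group labels of the trained libraries and the authors' own comparison tables disagree. Over 280 miRNAs, the authors' mean for the trained controls was rebuilt from libraries 6 and 7 with a root mean square error of 0.0134%, against 16.0% from libraries 3, 4 and 5, which are labelled so. Of the sets of 3 libraries, the closest was 6 and 7 with library 3 (0.0133%), in which library 3 took 0.00552% of the weight. The authors' mean for the trained NIPP1* group was rebuilt from libraries 3, 4 and 5 with an error of 0.0267%, against 18.6% from libraries 6 and 7. The files do not settle which assignment is right. The labels are followed, and the tests on trained genotypes are also given with the assignment of the tables.

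MiR-9 was the most abundant miRNA in each of the 7 libraries. Without training it made up 14.98% of the miRNA reads of the control library and 12.66% of those of the NIPP1* library. In the trained controls it made up 14.13%, 11.54% and 10.75% of the reads (12.1% ± 1.77, SD, n = 3). In the trained NIPP1* libraries it made up 12.96% and 12.81% (mean 12.9%, n = 2). The non-trained control was above every other library, and the trained controls ranged so widely that the non-trained and the trained NIPP1* libraries lay within their range. In order, the level fell from library 1 over libraries 3, 6, 7, 2 and 4 to library 5, and of these steps only the position of library 1 lay outside the range of the trained controls.

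The next miRNA in mean level was miR-29a, known as a repressor of extracellular matrix genes, at a mean of 11.2% against 12.8% for miR-9. The ratio of miR-9 to miR-29a within a library ran from 1.04 (library 5) to 1.32 (library 1). The lead of miR-9 was therefore narrow in libraries 2, 4 and 5, at 1.05, 1.07 and 1.04, and wider in libraries 1, 3, 6 and 7, at 1.32, 1.25, 1.18 and 1.11. A read stands for 1 mature miRNA, so no correction for length applies to these ratios, although ligation can favour some sequences.

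MiR-9*, the less abundant arm, was itself among the most abundant miRNAs. Without training it made up 2.34% of the miRNA reads of the control library and 2.43% of those of the NIPP1* library. In the trained controls it made up 2.61%, 2.30% and 2.28% (2.40% ± 0.187, SD, n = 3), and in the trained NIPP1* libraries 2.50% in both (n = 2). All 7 libraries lay within 2.28% to 2.61%, and the 2 non-trained and the 2 trained NIPP1* libraries lay within the range of the trained controls. MiR-9* ranked 10th of all miRNAs in 6 libraries and 9th in library 3, with miR-29c (mean 2.52%) just above and let-7b (2.24%), a member of the let-7 family of differentiation-linked miRNAs, just below its mean of 2.42%.

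**Figure D1:**
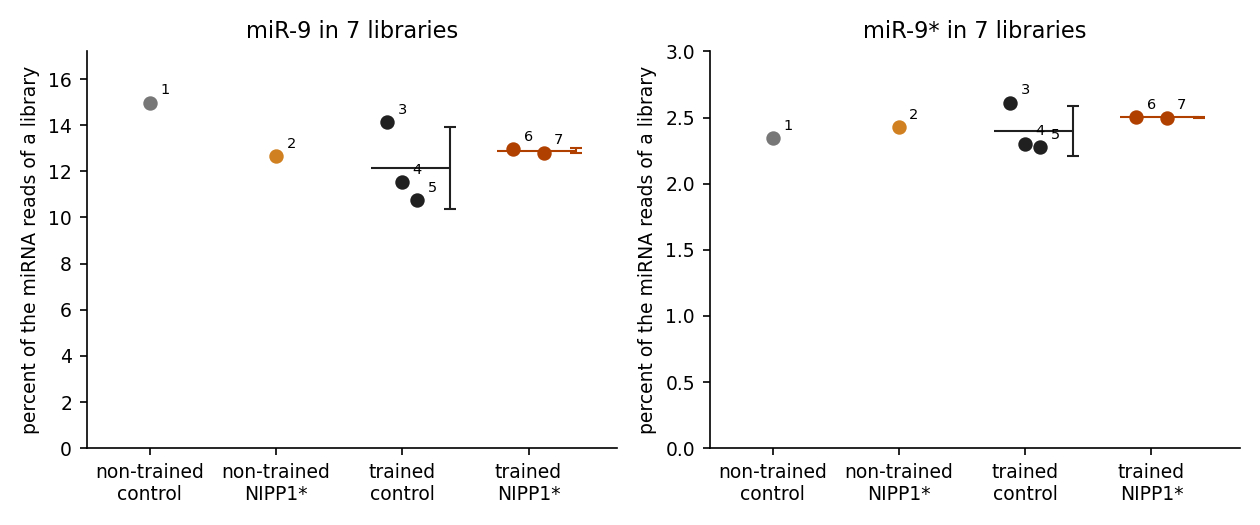
The level of miR-9 (left) and miR-9* (right) in percent of the miRNA reads of a library, for the 4 labelled groups. Points are libraries with their numbers, horizontal lines are group means and bars the SD where a group has more than 1 library. MiR-9 is highest in library 1 (14.98%) and spreads from 10.75% to 14.13% in the trained controls, whereas all values of miR-9* lie between 2.28% and 2.61%.

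Together both arms took 17.3% (control) and 15.1% (NIPP1*) of the miRNA reads without training, between 13.0% and 16.7% in the trained controls, and 15.5% and 15.3% in the trained NIPP1* libraries. The authors' tables give the reads of each non-trained library divided by a size factor. As recovered from them, miR-9 had 1332155 reads in the control and 1022285 in the NIPP1* library, and miR-9* had 208282 and 196010. The deposited percentages gave back 1331843 and 1021991 reads of miR-9. With this many reads the counting error was far below the spread between libraries. The residual SD of miR-9 within the groups was 0.167 on the log2 scale, below the median of 0.202 over the 476 miRNAs tested. Among the 62 miRNAs that reached a mean of 10000 reads, however, 72.6% had a smaller residual SD than miR-9 and 27.4% a smaller one than miR-9* (0.09).

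Copies of a sequence did not always carry the same value. For miR-9, the 3 copies were equal to 4 digits in each library. For miR-9*, the copies at Mir9-1 and Mir9-2 were equal to each other and the copy at Mir9-3 was lower. In the non-trained libraries it stood at 2.214% against 2.407% (control) and 2.292% against 2.496% (NIPP1*). In the trained controls it stood at 2.456% against 2.692%, 2.178% against 2.365% and 2.158% against 2.336%. In the trained NIPP1* libraries it stood at 2.380% and 2.374% against 2.563% in both. The copy at Mir9-3 was thus the lowest in all 7 libraries, by 13332 to 19353 reads per library.

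Relative to the other copies, Mir9-3 was lower by 8.02% (control) and 8.17% (NIPP1*) without training. It was lower by 8.77%, 7.91% and 7.62% in the trained controls (mean 8.10% ± 0.597, SD, n = 3) and by 7.14% and 7.37% in the trained NIPP1* libraries (mean 7.26%, n = 2). Both trained NIPP1* libraries were below the other 5, and the trained groups did not overlap. Of the 11 sequences with unequal copies, 6 (54.5%), miR-9* included, had no overlap of the trained groups in the shortfall of the lowest copy. That count leaves the non-trained libraries aside. The mean difference between the trained groups was -0.841 percentage points (exact permutation test, two-sided p = 0.2, n = 3 and 2, smallest p possible 0.1), a comparison chosen after the values were seen. It was -0.506 without trained control replicate 1, and with the assignment of the authors' tables it turns to 0.841. Trained against non-trained libraries differed by -0.334 percentage points (exact permutation test, two-sided p = 0.476, n = 5 and 2), and by -0.585 without trained control replicate 1 and -0.179 without trained NIPP1* replicate 1.

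**Figure D2:**
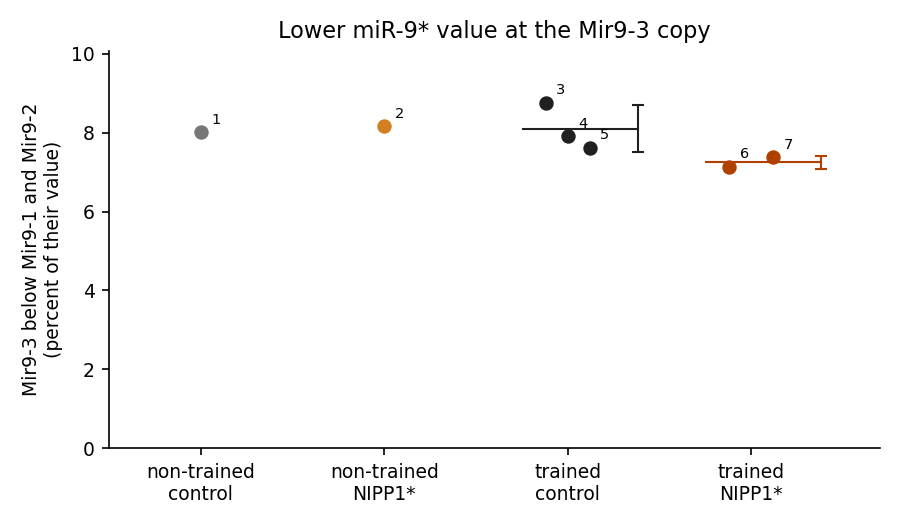
How far the miR-9* value at Mir9-3 lies below the value at Mir9-1 and Mir9-2, in percent of their value, by labelled group. Points are libraries with their numbers, lines are group means and bars the SD where a group has more than 1 library. All 7 libraries lie between 7.14% and 8.77%.

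The hairpins printed above differ close to miR-9* and not within it. Counted from the first base of miR-9*, Mir9-3 first departs from Mir9-1 and from Mir9-2 at A24G, 2 bases after its end, and Mir9-1 and Mir9-2 first differ at U28C, 6 bases after its end. Before miR-9*, Mir9-3 first departs from both others 3 bases ahead of its start. Around miR-9, whose copies had equal values, Mir9-3 departs from both others at the base just before its start (1 base ahead), and any pair first differs 4 bases beyond its end. The part of these bases in the lower value at Mir9-3 was not tested. Unequal copies were not particular to miR-9*. Of 30 sequences with copies that reached a mean of 100 reads, 11 had a lowest copy under 99% of the highest, among them miR-128, a neuronal miRNA, at 69.6%.

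The 2 arms were used in a narrow range of proportions. The ratio of miR-9 to miR-9* without training was 6.39 in the control and 5.21 in the NIPP1* library. It was 5.41, 5.01 and 4.72 in the trained controls (5.05 ± 0.344, SD, n = 3) and 5.18 and 5.12 in the trained NIPP1* libraries (mean 5.15, n = 2). The non-trained control stood above the other 6 libraries, which lay between 4.72 and 5.41. The ratio does not depend on how a library is scaled. MiR-9* made up 13.5% of the reads of both arms in the non-trained control and between 15.6% and 17.5% in the other libraries.

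**Figure D3:**
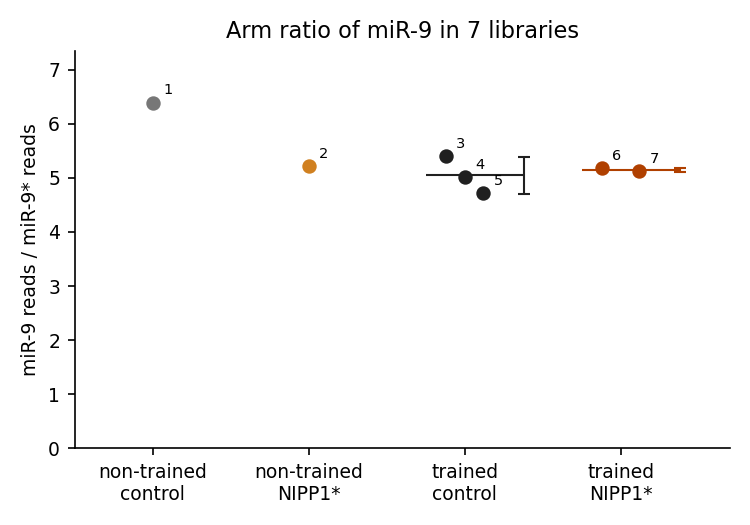
Ratio of miR-9 reads to miR-9* reads in each library, by labelled group. Points are libraries with their numbers, lines are group means and bars the SD where a group has more than 1 library. Library 1, the non-trained control, stands at 6.39 and the other 6 between 4.72 and 5.41.

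Across hairpins, miR-9 combined a high level with a large share of the minor arm. In 153 hairpins both arms reached a mean of 10 reads. MiR-9* made up 15.9% of both arms by the means over the 7 libraries, and 76.5% of the hairpins had a smaller share of the minor arm (median 4.22%). Of the 22 hairpins, miR-9 included, whose major arm reached 10000 RPM, 0 had a larger share (median 0.256%), and miR-9* was the most abundant minor arm of all. The hairpins of miR-128 had a 3′ arm that exceeded miR-128-1* by 1070 to 1549 times and miR-128-2* by 4909 to 8854 times. MiR-124, a neuronal miRNA at a mean of 0.406%, exceeded miR-124* by 8.32 to 12.7 times.

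**Figure D4:**
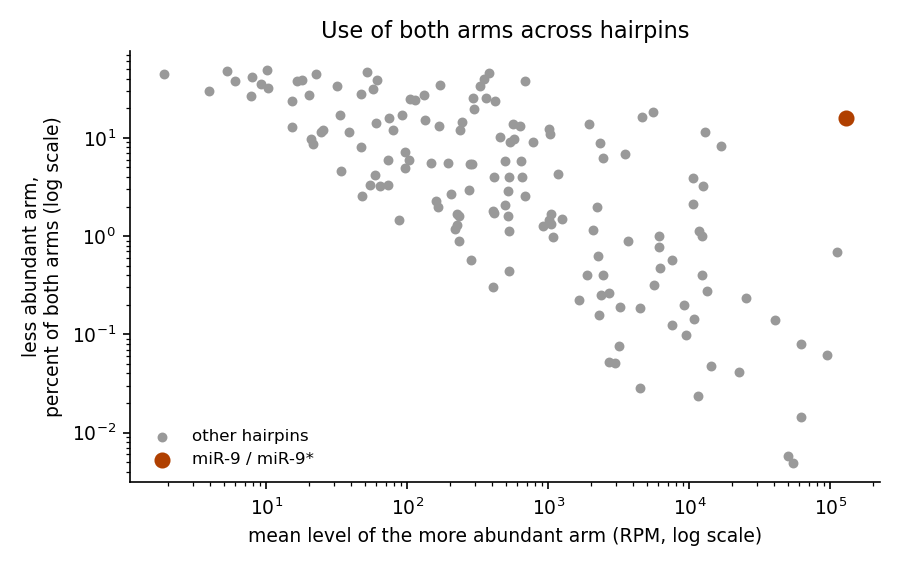
Share of the less abundant arm in the reads of both arms (percent, log scale) against the mean level of the more abundant arm (RPM, log scale) for 153 hairpins, each point 1 hairpin. The miR-9 hairpin, in colour, has a minor arm share of 15.9%, against a median of 0.256% over the 22 hairpins whose major arm reached 10000 RPM.

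The levels of the 2 arms over the 7 libraries had a Pearson r of 0.548 (exact permutation p = 0.205) and a Spearman rho of 0.643 (exact permutation p = 0.139) on the log2 scale. Without libraries 1 and 5, the farthest from the median of miR-9, r was 0.982 over 5 libraries. Both arms are shares of the same reads, and no relation is drawn from these values. Among 318 other miRNAs that reached a mean of 100 reads, the patterns most like miR-9 over the 7 libraries were those of miR-384-3p (r = 0.986), miR-340-5p (r = 0.977) and miR-369-3p (r = 0.972). MiR-384-3p stood at 413 RPM in library 1 and at 245 RPM in library 5, the libraries with the highest and the lowest miR-9. The patterns most like miR-9* were those of miR-30c (r = 0.890), miR-411 (r = 0.850) and miR-582-3p (r = 0.832). These are descriptions, picked as the highest of many.

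In the absence of training, the NIPP1* library was compared with the control library, to see what inhibition of PP1 alone went with. MiR-9 was at 12.66% against 14.98%, a log2 ratio of -0.24 (95% interval from -0.25 to -0.24, exact conditional binomial). MiR-9* was at 2.43% against 2.34%, a log2 ratio of 0.05 (95% interval from 0.04 to 0.06). Without the reads of both members in the totals, the ratios were -0.28 for miR-9 and 0.01 for miR-9*. The log2 ratio of the arms was lower by 0.29 in the NIPP1* library, with an interval from -0.30 to -0.28. With 1 library in each group there is no test, and the intervals cover counting error only. The replicate libraries 3 and 5 differed by 0.39 for miR-9, more than these non-trained libraries did, while the largest replicate difference of the arm ratio was 0.20, between the same libraries. Past a log2 ratio of 1 in size were 3 of the 322 miRNAs (0.932%) that reached a mean of 100 reads, and 2 of 153 arm ratios (1.31%). Neither member nor their ratio was among them. Of the 322 miRNAs, 68.3% had a smaller change than miR-9, and of the 153 arm ratios 64.1% had a smaller change than that of miR-9. Between the same libraries the oligodendrocyte markers summed to 4808 RPM (control) and 3845 RPM (NIPP1*), and the 4 neural miRNAs other than miR-9 to 64836 and 76498 RPM. Their part in the result was not tested.

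In the controls, training was tested by limma on log2(RPM + 0.5) over all 7 libraries and 476 miRNAs, with Benjamini-Hochberg adjustment. MiR-9, at 12.1% ± 1.77 (SD, n = 3) after training and 14.98% (n = 1) without, had a log2 difference of -0.31 ± 0.15 (SE, limma adjusted p = 0.666) and was lower than the non-trained control in 3 of 3 trained controls, as were 178 of the 476 miRNAs (37.4%; 55.7% were on one side of it in all 3). TMM factors gave -0.26, edgeR -0.21 and DESeq2 -0.21. MiR-9* had a difference of 0.03 ± 0.12 (SE, limma adjusted p = 0.947), which turned to -0.02 when libraries were scaled to reads other than those of the 2 members and was 0.09 with TMM factors, 0.12 with edgeR and 0.13 with DESeq2. It turned to -0.03 without trained control replicate 1, and was 0.06 without replicate 2 and 0.07 without replicate 3. The arm ratio had a log2 difference of -0.34 ± 0.16 (SE, limma adjusted p = 0.548 over 153 hairpins) and was lower in 3 of 3 trained controls, as was the ratio of the 5′ to the 3′ arm in 46 of the 153 hairpins (30.1%; 51.6% were on one side in all 3). None of these passed the threshold of 0.05. By this test 0 of 476 miRNAs (0%) and 0 of 153 arm ratios (0%) were called, with 28 and 15 at an unadjusted p under 0.05. EdgeR's quasi-likelihood test called 0 miRNAs and DESeq2's Wald test 1, which was not a member. Without trained control replicate 1, the unadjusted counts rose to 107 of 479 miRNAs and 38 of 154 arm ratios, with 1 arm ratio called, not that of miR-9. Without any one of the other 4 trained libraries they were 13 to 17 and 7 to 9, with 0 called.

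The estimate for miR-9 rested in part on trained control replicate 1, which at 14.13% was close to the non-trained control. Without it the log2 difference was -0.43 ± 0.07 (SE) with a limma adjusted p of 0.0742, the lowest of a range from 0.0742 to 0.994 over the alternatives. With the assignment of the authors' tables, under which libraries 6 and 7 are the trained controls, the difference of miR-9 was -0.22 ± 0.16 (SE), that of miR-9* 0.09 ± 0.12 and that of the arm ratio -0.31 ± 0.17, each with a limma adjusted p of 0.659 or more. The unadjusted counts were then 12 miRNAs and 9 arm ratios, with 0 called. Some marker sums, though not all, also separated library 1 from the trained controls. The oligodendrocyte markers (2 of 3 listed, miR-219-5p and miR-338-3p, detected) summed to 4808 RPM in library 1 and to 2766 to 3299 RPM in the trained controls. The vessel markers (4 of 4, miR-126-3p, miR-126-5p, miR-143 and miR-145) summed to 14824 RPM and to 15486 to 18452 RPM. The 4 neural miRNAs other than miR-9 summed to 64836 RPM and to 70266 to 80445 RPM. Muscle miRNAs summed to 634 RPM and to 534 to 592 RPM, and leukocyte and microglia miRNAs to 858 RPM and to 894 to 906 RPM. For red blood cells, choroid plexus, liver and hindbrain, library 1 lay within the range of the trained controls. Their part in the result was not tested. In bulk tissue, fewer cells of a type and less RNA per cell cannot be told apart.

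In the NIPP1* mice, the levels of both arms were close with and without training. MiR-9 was at 12.96% and 12.81% after training and 12.66% without, a log2 difference of 0.03 ± 0.16 (SE, limma adjusted p = 0.999). MiR-9* had a difference of 0.04 ± 0.12 (SE, limma adjusted p = 0.999) and the arm ratio one of -0.02 ± 0.17 (SE, limma adjusted p = 0.968). The latter was -0.03 without trained NIPP1* replicate 1 and -0.01 without replicate 2. By limma, 0 of 476 miRNAs (0%) and 0 of 153 arm ratios (0%) were called, with 21 and 14 at an unadjusted p under 0.05, while edgeR called 0 miRNAs and DESeq2 2, neither a member. A limma model of only libraries 2, 6 and 7 called 10 of 153 arm ratios, with 34 at an unadjusted p under 0.05. The arm ratio of miR-9 was not among them. Without trained control replicate 1 the unadjusted counts were 34 miRNAs and 26 arm ratios, and without any one of the other trained libraries 10 to 19 and 2 to 12, with 0 called. With the assignment of the tables the differences were -0.07 ± 0.15 (SE) for miR-9, -0.02 ± 0.12 for miR-9* and -0.05 ± 0.16 for the arm ratio. With TMM factors, edgeR and DESeq2 the differences were 0.05, 0.05 and 0.07 for miR-9 and 0.07, 0.07 and 0.08 for miR-9*. The unadjusted counts with the assignment of the tables were 9 miRNAs and 7 arm ratios, with 0 called.

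Whether training acted differently in the 2 genotypes was tested by the interaction term. The difference was 0.34 ± 0.22 (SE, limma adjusted p = 0.765) for miR-9, 0.01 ± 0.17 (SE, limma adjusted p = 0.995) for miR-9* and 0.33 ± 0.24 (SE, limma adjusted p = 0.654) for the arm ratio. None passed the threshold. For miR-9* the sign turned to -0.02 with TMM factors, -0.06 with edgeR and -0.04 with DESeq2. It also turned to -0.02 without trained control replicate 2 or 3, and was 0.08 without replicate 1. The calls were 0 of 476 (0%) and 0 of 153 (0%), with 37 and 10 at an unadjusted p under 0.05, and edgeR called 0 and DESeq2 2, neither a member. Without trained control replicate 1 the unadjusted counts were 85 and 22, and without any one of the other trained libraries 22 to 27 and 7 to 11, with 0 called. With the assignment of the tables these terms were 0.15 ± 0.22, -0.12 ± 0.17 and 0.26 ± 0.24 (SE), and the unadjusted counts 6 and 4, with 0 called.

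Over both genotypes, the log2 difference with training was -0.14 ± 0.11 (SE, limma adjusted p = 0.873) for miR-9, 0.04 ± 0.09 (SE, limma adjusted p = 0.973) for miR-9* and -0.18 ± 0.12 (SE, limma adjusted p = 0.686) for the arm ratio. All 3 are the same with either assignment of the trained libraries by construction, since both trained groups have equal weight in this contrast. Other tools moved them, with edgeR giving -0.08 and DESeq2 -0.07 for miR-9, and TMM factors 0.08, edgeR 0.09 and DESeq2 0.10 for miR-9*. For miR-9* the value was 0.005 without trained control replicate 1 and 0.02 without the members' reads in the totals. The mean log2 arm ratio of the 5 trained libraries was 2.35 against 2.53 in the 2 non-trained ones, a difference of -0.18 (exact permutation test, two-sided p = 0.0952, n = 5 and 2, smallest p possible 0.0476), and the non-trained NIPP1* library lay within the range of the trained ones. The calls were 0 of 476 (0%) and 0 of 153 (0%), with 16 and 13 at an unadjusted p under 0.05, and edgeR called 0 miRNAs and DESeq2 1, not a member. Without trained control replicate 1 the unadjusted counts were 66 and 31, with 1 arm ratio called, not that of miR-9, and without any one of the other trained libraries 5 to 13 and 4 to 8, with 0 called.

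Between the trained groups, the NIPP1* libraries lay inside the range of the controls for both arms and for their ratio. The log2 difference of NIPP1* from control was 0.10 ± 0.12 (SE, limma adjusted p = 0.832) for miR-9 and 0.06 ± 0.09 (SE, limma adjusted p = 0.871) for miR-9*. For the arm ratio it was 0.03 ± 0.13 (SE, limma adjusted p = 0.945; exact permutation test, two-sided p = 0.7, n = 3 and 2, smallest p possible 0.1). Assigned as in the tables, the 3 values keep their size and turn their sign. Without trained control replicate 1 the differences were 0.21 (miR-9), 0.13 (miR-9*) and 0.08 (arm ratio), and without replicate 3 they were 0.01, 0.03 and -0.01. Without replicate 2 they were 0.06, 0.04 and 0.03. With edgeR and DESeq2 the differences were 0.01 and 0.04 for miR-9 and -0.01 and 0.01 for miR-9*, and TMM factors gave 0.04 for miR-9*. The calls were 0 of 476 (0%) and 0 of 153 (0%), with 34 and 12 at an unadjusted p under 0.05, and edgeR called 0 miRNAs and DESeq2 1, not a member. Without trained control replicate 1 the unadjusted counts were 116 and 35. Without any one of the other trained libraries they were 9 to 17 and 5 to 10. Leaving out trained control replicate 1 or 3 each called 1 arm ratio, not that of miR-9.

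**Figure D5:**
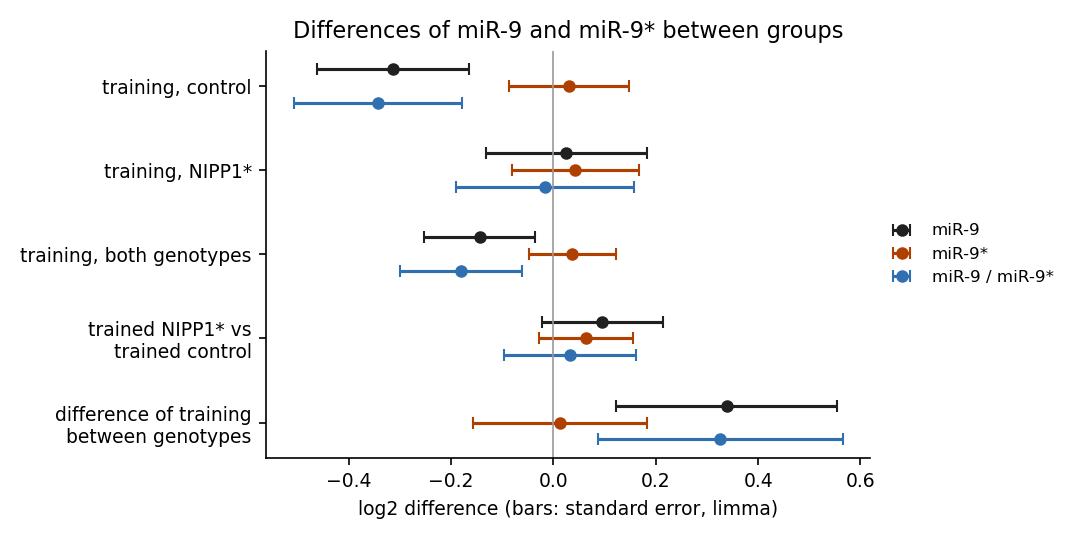
Log2 differences of miR-9, miR-9* and their ratio in the 5 tested comparisons, with the standard error of limma as bars. The values for miR-9 and the ratio in trained controls, at -0.31 and -0.34, lie below 0, and no difference passed an adjusted p of 0.05.

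Other brain-enriched miRNAs were set beside the members as a list of 19, of which 17 were measured and tested. In the controls, 0 of the 17 were called in either direction with training. Their median log2 difference was -0.21, with 12 below 0 and 5 above, against a median of -0.09 over the 476 miRNAs tested. In the NIPP1* mice the median was 0.04 against -0.03, and between the trained groups it was 0.00 against 0.04. Over both genotypes it was -0.09 against -0.05, and for the interaction 0.30 against 0.03, with 11 above 0 and 6 below. In each of these 0 of the 17 were called. Under the assignment of the tables the median was -0.06 against -0.04 for training in controls, -0.09 against -0.09 in NIPP1* mice and -0.02 against -0.04 for the interaction, with 0 called. The 3 most abundant of the list did not follow miR-9 alike. MiR-125b-5p, a miRNA of neurons and glia, was lowest in library 1, at 8.17%, and stood at 8.78%, 10.4% and 10.7% in the trained controls. MiR-128 was also lowest in library 1, at 5.40%, and stood at 6.05%, 6.23% and 7.19% in the trained controls. MiR-137, which acts in neuronal maturation, was highest in library 1, at 1.28%, and stood at 1.20%, 0.899% and 0.888% in the trained controls. None of the 3 passed the test, with log2 differences of 0.28 ± 0.13, 0.26 ± 0.12 and -0.38 ± 0.19 (SE, limma adjusted p = 0.666 for each). Assigned as in the tables, these were 0.06 ± 0.13, 0.11 ± 0.13 and -0.22 ± 0.20 (SE, limma adjusted p = 0.994 for each).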

How the data were processed

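Small RNA libraries were made from hippocampal RNA with the TruSeq Small RNA Kit, and inserts of 19 to 26 nt were analysed. Per the study's methods and the submitters' processing notes (CASAVA 1.7.0, Bowtie and bedtools are named), reads were mapped to NCBI37/mm9 with bowtie in the ncPRO-seq pipeline. The methods state that reads mapping uniquely to miRNAs were used, yet copies of one sequence each have values, equal in some sequences and unequal in others. The authors deposited the percent of miRNA reads at each mature locus, to 4 digits. The authors also deposited tables of comparisons, whose signal is reads divided by size factors, as a value per group. Their fold changes and p-values were not used, nor were 2 columns of values per library.

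Copies of a mature sequence were averaged, and 99.1% to 99.7% of the low values came out as whole reads (within 0.1 read). Of 706 names with a read, 643 were joined to a sequence. Arms were paired by RefSeq hairpins, counted once where both strands of a site are annotated, except miR-124 and miR-124*, paired by name. Tests covered miRNAs that reached a mean of 10 reads. Limma with a trend was fitted to log2(RPM + 0.5), which understates the change of low miRNAs, in 1 model of the 4 labelled groups, so the spread of the trained libraries stands for that of the single non-trained ones. The log2 arm ratio was fitted likewise. Calls used a Benjamini-Hochberg adjusted p under 0.05. In simulated data, 200 of 476 miRNAs were shifted by 2 on the log2 scale, and limma recovered 98% of them for training in controls. That shift was far larger than the differences of the members, and the simulated noise was independent between miRNAs. The power to find differences of the size seen was not tested.

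The text names the 2 members, the 3 miRNAs most like each, their neighbours in level, miR-124 and miR-128, and the 3 most abundant of the brain-enriched list, besides members of the marker lists and miR-9b, an annotated product of the opposite strand. The members and lists were chosen with earlier results of these data known. Of the other marker lists (leukocytes and microglia, red blood cells, choroid plexus, muscle, hindbrain) only sums were computed. Alternatives were TMM factors, totals without the members, edgeR's and DESeq2's tests on recovered reads, pseudocounts of 0.1 and 1 RPM, no filter or at least 100 reads, models of only the groups compared, the assignment of the authors' tables and leaving out each trained library. The highest copy in place of the mean, and the tests of the Mir9-3 copy, were added after seeing the data. Software comprised Python 3.11.15 (scipy 1.17.1, pandas 2.3.3, numpy 2.4.6) and R 4.3.3 (DESeq2 1.42.0, limma 3.58.1, edgeR 4.0.16).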

Additional observations from a re-analysis of the deposited data

How the results depend on the processing

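No paired analysis was possible because the labels number the libraries in 1 run and give no replicate numbers within groups. Of 260 values recomputed under the alternatives, 18 turned their sign, 4 moved in size and 238 were counted as the same. Some of the 238 could not change, since another filter, or leaving out a library outside a comparison, does not alter the estimate. Levels and non-trained ratios have no test. The count is therefore no measure of robustness. Without the reads of the members in the totals, miR-9* with training in controls turned to -0.017, and the non-trained log2 ratios moved to -0.28 for miR-9 and 0.013 for miR-9*. With the assignment of the authors' tables, the training differences in NIPP1* turned to -0.070 (miR-9) and -0.021 (miR-9*) and the interaction of miR-9* to -0.12. The differences between the trained groups, which swap there by construction, turned to -0.096 (miR-9), -0.064 (miR-9*) and -0.032 (arm ratio, also in the exact test), and that of the Mir9-3 shortfall to 0.841 percentage points. The interaction of miR-9* also turned to -0.018 with TMM factors, -0.058 with edgeR and -0.044 with DESeq2, and edgeR turned miR-9* between the trained groups to -0.013. The cause of the other turns was not tested, and the limma differences that turned were smaller than their standard errors. Summed over loci, trained controls stood at 36.4% (miR-9) and 7.19% (miR-9*), since each copy is then counted.

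Leaving out each trained library gave ranges with training in controls of -0.43 to -0.23 (miR-9), -0.033 to 0.066 (miR-9*) and -0.39 to -0.30 (arm ratio). Over both genotypes they were -0.20 to -0.10, 0.0048 to 0.055 and -0.21 to -0.16. Between the trained groups the ranges were 0.013 to 0.21, 0.028 to 0.13 and -0.015 to 0.083, and for the interaction of miR-9* -0.024 to 0.076. The Mir9-3 shortfall between them ranged from -1.08 to -0.506, and for trained against non-trained from -0.585 to -0.179. Where a group was left with 1 library, it was assumed to vary like the others. Unadjusted counts under 0.05 rose in each comparison without trained control replicate 1 (to 107 miRNAs from 28 for training in controls), and a model of only the libraries compared called 10 arm ratios in place of 0 for training in NIPP1*. With the assignment of the authors' tables the unadjusted count for the interaction was 6 miRNAs in place of 37. Between the non-trained libraries, the counting interval ran from -0.246 to -0.239 for miR-9 and from 0.0427 to 0.0606 for miR-9*. Replicates differed by 0.0168 to 0.394 for miR-9 and by 0.00115 to 0.199 for miR-9*. For miR-9*, libraries 4 and 5 and libraries 6 and 7 differed by less than the width of its interval.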

Other observations

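The sums of other marker lists differed in how far they spread over the libraries. Choroid plexus miRNAs (7 of 7 detected) summed to 828 and 958 RPM in the non-trained control and NIPP1* libraries, to 620 to 1266 RPM in the trained controls and to 597 and 1228 RPM in the trained NIPP1* libraries. Red blood cell miRNAs (miR-451 and miR-144) summed to 116 and 85.0 RPM in the non-trained libraries, to 61.9 to 126 RPM in the trained controls and to 132 and 251 RPM in the trained NIPP1* libraries. Leukocyte and microglia miRNAs (5 of 5 detected) lay between 858 and 997 RPM in all 7 libraries. Muscle miRNAs (3 of 3) lay between 434 and 644 RPM, and those of hindbrain and spinal cord (3 of 4) between 26.6 and 48.0 RPM. Libraries 6 and 7, which held nearly the same miR-9 and miR-9*, differed from each other in the choroid plexus and red blood cell sums.

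Trained control replicate 1, the highest of its group in miR-9 and miR-9*, also had the highest choroid plexus, red blood cell and oligodendrocyte sums of its group, at 1266, 126 and 3299 RPM, and the lowest vessel sum, at 15486 RPM. Its sum of neural miRNAs other than miR-9 was the lowest too, at 70266 RPM, as were its leukocyte and liver sums. Its muscle and hindbrain sums lay between those of the other trained controls. In so small a group, a library is often at one end.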
